A study of Mus musculus with 2 samples.

Results

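The neutrophils of the mouse esophagus formed cluster 17 of the authors' deposited annotation. The cluster held 60 of 4853 cells, taken by their cluster number alone, and the authors' cell type for them was Myeloid. Of these, 56 came from the Keap1 cKO library, which made up 2.35% of its 2381 cells (exact 95% interval 1.78 to 3.04), and 4 came from the control library, 0.162% of its 2472 cells (0.0441 to 0.414). Both shares depend on which cells survived dissociation, and no ratio between the genotypes was formed from them. The Keap1 cKO mouse genotype was K5CreERT2::Keap1 floxB/floxB, in which both Keap1 copies carry the floxB allele and a Cre recombinase activated by tamoxifen is driven by the keratin 5 promoter. The control was Keap1 floxB/floxB, without the Cre. Both were hybrids of the C57BL/6J and BALB/c strains, and the esophagi were stripped of muscle, digested with trypsin and read with droplet 3′ single-cell RNA sequencing, 1 library for each genotype. Neither the age of the mice, nor a tamoxifen schedule, nor the number of animals in a library is stated. The keratin 5 promoter is active in basal keratinocytes and not in neutrophils, so the design places the deletion in other cells than those described here.

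Neutrophils are short-lived phagocytes of the granulocyte lineage that are made in the bone marrow, circulate in blood and enter tissue along chemokine gradients. They load their granules with enzymes and iron-binding proteins while still in the marrow, and mature cells in tissue rely on receptors, stored proteins and rapid transcription of inflammatory mediators. In the squamous lining of the esophagus they are sparse in health and collect where the epithelium is injured or infected.

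The promoters of 4 genes are shown first because they stand for the contrasts that follow. Retnlg and Retnla encode related resistin-like secreted proteins and are neighbours on chromosome 16. Retnlg had the highest ratio of cluster 17 over myeloid cluster 2 among the ranked genes, and Retnla the second lowest. Cxcl2 and Cxcl3 encode chemokines that bind CXCR2 and are neighbours on chromosome 5. Both were higher in cluster 17 than in cluster 2. Cxcl2 was abundant there, at 16842 CPM, while Cxcl3 had 440 CPM and was found in only 12 cells. Each window runs from 250 bases before a start site to 50 bases after it on the plus strand, from RefSeq on GRCm38.p6 (mm10): chr16:48872358-48872657 for Retnlg, chr16:48842359-48842658 for Retnla, chr5:90903649-90903948 for Cxcl2 and chr5:90785851-90786150 for Cxcl3. Capitals mark letters that match a searched motif.

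Retnlg: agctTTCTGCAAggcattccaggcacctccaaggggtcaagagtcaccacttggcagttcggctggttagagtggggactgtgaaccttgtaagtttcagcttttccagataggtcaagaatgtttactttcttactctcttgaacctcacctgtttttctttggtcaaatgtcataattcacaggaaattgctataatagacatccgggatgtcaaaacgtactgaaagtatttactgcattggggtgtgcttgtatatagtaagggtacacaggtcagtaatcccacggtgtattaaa

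Retnla: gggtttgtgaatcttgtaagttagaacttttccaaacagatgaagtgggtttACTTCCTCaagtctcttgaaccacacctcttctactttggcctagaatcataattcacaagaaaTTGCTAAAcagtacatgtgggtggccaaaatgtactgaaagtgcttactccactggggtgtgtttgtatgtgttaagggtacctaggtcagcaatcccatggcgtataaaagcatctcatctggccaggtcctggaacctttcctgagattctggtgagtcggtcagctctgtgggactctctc

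Cxcl2: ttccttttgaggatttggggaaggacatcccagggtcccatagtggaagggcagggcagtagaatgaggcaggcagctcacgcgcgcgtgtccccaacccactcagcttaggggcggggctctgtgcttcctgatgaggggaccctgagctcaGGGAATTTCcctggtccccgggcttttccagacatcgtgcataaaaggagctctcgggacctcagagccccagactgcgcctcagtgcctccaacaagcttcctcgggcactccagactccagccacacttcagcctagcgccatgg

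Cxcl3: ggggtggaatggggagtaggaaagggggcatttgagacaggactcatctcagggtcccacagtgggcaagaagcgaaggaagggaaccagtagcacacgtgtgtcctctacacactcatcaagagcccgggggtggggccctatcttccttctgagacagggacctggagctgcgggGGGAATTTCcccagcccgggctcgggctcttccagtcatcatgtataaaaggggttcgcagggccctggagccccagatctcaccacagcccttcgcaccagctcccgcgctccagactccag

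The motifs searched on both strands were TTNNGCAA for C/EBP factors, GAGGAAGT for PU.1 and GGGANTTTC for NF-kB. The capitals in the Retnlg window are a C/EBP match that begins 246 bases before the start site. The Retnla window holds a C/EBP match 134 bases and a PU.1 match 198 bases before its start. Cxcl2 and Cxcl3 hold the same NF-kB letters, GGGAATTTC, 97 and 73 bases before their starts. Over all 32851 windows of the table, C/EBP letters were found in 10.8%, PU.1 letters in 3.20% and NF-kB letters in 1.11%. Of the 15 genes with the highest ratios, 13 had a window, and 2 held C/EBP letters (Retnlg and S100a9), 1 held PU.1 letters (S100a8) and 3 held NF-kB letters (Cxcl3, Cxcr2 and S100a9). Of the 15 lowest, 12 had 14 windows, with C/EBP letters in 2, PU.1 letters in 3 and NF-kB letters in 0. The NF-kB letters were first searched with a further C at their end, and were shortened after those matches had been seen. In the longer form 0.411% of all windows and 1 of the 13 windows matched (Cxcl3), as did Cxcl2. A match is a description of letters, and binding was not measured.

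UMIs (unique molecular identifiers, tags that count captured RNA molecules) were summed over the cells of a cluster and are given as counts per 1000000 UMIs of that cluster (CPM). Each molecule gives 1 tag at its 3′ end, so CPM compares genes without a length term. The comparison below is between cluster 17 and myeloid cluster 2 of the same Keap1 cKO library, with 56 and 356 cells. Cluster 17 cells had 562 to 13599 UMIs with a median of 3057, and cluster 2 cells had 532 to 26086 with a median of 6473. The median number of genes was 1256 in cluster 17 and 2423.5 in cluster 2. The sums behind each level were 186500 UMIs for cluster 17 and 2422549 for cluster 2. Over all cells the Keap1 cKO library held 26036522 UMIs and the control library 30501227, and of the 5 cell barcodes that both libraries share, 0 were in cluster 17. With 1 library for each genotype there were no replicates and no test was made. The intervals are exact 95% intervals that cover counting error only. The clusters were drawn from these same values, so a ratio between them is a description.

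Marker genes were read to describe the label. The 56 cells expressed between 4 and 12 of 12 neutrophil markers, with a median of 9. These 12 include Retnlg, Csf3r, Cxcr2 and Acod1, which name the cluster, and S100a8 and S100a9. The list was chosen with earlier results of these data known, so its high level here is a description and no test of the label. The 12 neutrophil markers summed to 110236 CPM in cluster 17 and 398 CPM in cluster 2. Markers of macrophages summed to 343 CPM in cluster 17 and 6211 CPM in cluster 2, and those of dendritic cells to 150 CPM in cluster 17 and 6467 CPM in cluster 2. The dendritic genes Flt3, Zbtb46, Cd209a, Xcr1 and Clec9a had 0 UMIs in cluster 17, as did the 4 mast cell genes, the 4 natural killer genes and the 3 platelet genes measured. Keratinocyte markers came to 912 CPM in cluster 17, 644 CPM in cluster 2 and 404 CPM in red blood cells, which do not express them, so free RNA in the droplets can give levels of this size.

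Retnlg, Csf3r, Cxcr2 and Acod1, the genes that name the cluster, were unevenly spread among its cells. All 4 were detected in 16 cells, 3 in 13, 2 in 18, 1 in 7 and 0 in 2 cells. At least 2 of the 4 were detected in 47 of the 56 cells, and in 3 of the 2325 other Keap1 cKO cells, all 3 in cluster 2. In the control library, 0 cells outside the cluster had 2 of them. Csf3r, the receptor for granulocyte colony-stimulating factor, was found in 53 of 56 cells (94.6%) with a median of 6 UMIs and at most 13. Cxcr2, the receptor for the CXC chemokines that recruit neutrophils, was found in 42 cells (75.0%), with a median of 2 UMIs and at most 9. Acod1, the mitochondrial enzyme that makes itaconate, was found in 30 cells (53.6%), with a median of 1 UMI and at most 25. Retnlg was found in 21 cells (37.5%), its median was 0, and 229 of its 578 UMIs came from 1 cell.

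Of the same genes, Csf3r was also present in cluster 2, at a lower level, and the other 3 were rare in the comparison cells. Cluster 2 held a Csf3r UMI in 20.2% of its cells, and Cxcr2, Acod1 and Retnlg UMIs in 0.281%, 0.843% and 0.843%. Red blood cells, with a median of 10271.5 UMIs, held Retnlg in 1.67%, Csf3r in 1.67%, Acod1 in 0.833% and Cxcr2 in 0 of 120 cells. When each cell was thinned to 1000 UMIs, which kept 54 of the 56 cluster 17 cells, Csf3r was found in 74.1%, Cxcr2 in 53.7%, Acod1 in 33.3% and Retnlg in 29.6% of them. Cluster 2 then held Csf3r in 4.05% of 346 cells and the other 3 genes in 0 of them. S100a8 was found in 100% of cluster 17 cells and 96.3% after thinning. In cluster 2 it was found in 61.2% and 16.2%, and in red blood cells in 60.8% and 12.5%. S100a9 was found in 58.1% of cluster 2 and 63.3% of red blood cells at full depth. After thinning its shares were 15.03% (11.4 to 19.2) in cluster 2 and 5.83% (2.38 to 11.6) in red blood cells. The S100a8 level was 173 CPM in cluster 2 and 102 CPM in red blood cells. Whether the S100a8 and S100a9 shares of cluster 2 come from free RNA was not tested.

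**Figure D1:**
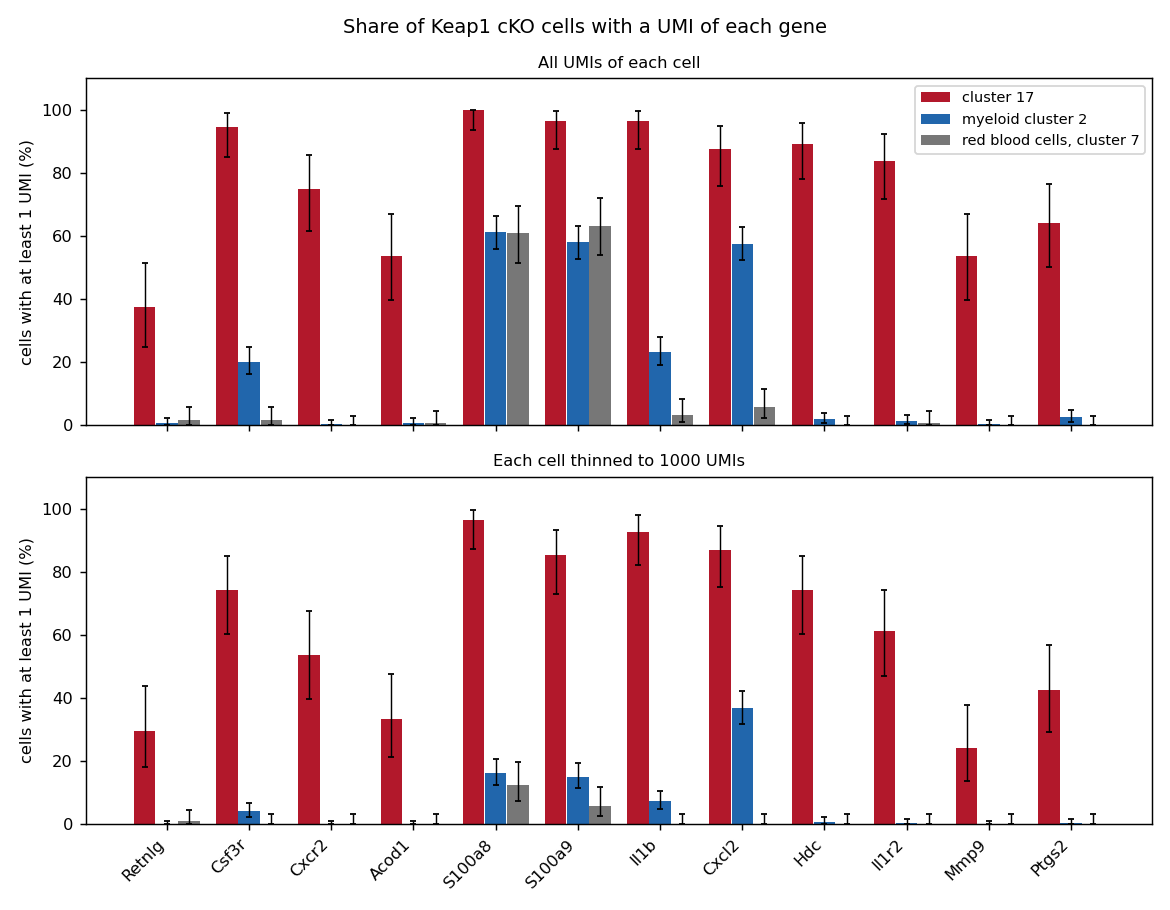
Share of Keap1 cKO cells with at least 1 UMI of 12 genes, in percent, for cluster 17, myeloid cluster 2 and red blood cells, at full depth and with each cell thinned to 1000 UMIs; error bars are exact 95% intervals for counting error. S100a8 and S100a9 reach about the same share in cluster 2 as in red blood cells at full depth, while Cxcr2, Hdc, Il1r2 and Mmp9 are nearly confined to the cluster 17 bars among the 3 groups drawn. After thinning S100a9 is found in 15.03% of cluster 2 cells and 5.83% of red blood cells.

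Across all 8617 genes with at least 20 UMIs over both clusters, 1037 (12.0%) were at least 2-fold higher in cluster 17 and 2522 (29.3%) at least 2-fold lower. The median log2 ratio over these genes was −0.33. Scaling by the median of ratios moved every ratio up by 0.39 and gave 1577 higher and 1700 lower genes, so the balance between the directions rests on the scaling. The 15 highest were Retnlg, Wfdc21, Cstdc4, Cxcr2, G0s2, Prok2, Mmp9, Acod1, Stfa2l1, Hdc, Il1r2, S100a9, S100a8, Cxcl3 and Il1f9. Retnlg had 3099 CPM in cluster 17 and 1.24 CPM in cluster 2, a log2 ratio of 11.29 (9.73 to 13.57). Cxcr2 had 713 CPM against 0.413 CPM, a log2 ratio of 10.75 (8.25 to 16.07), and Acod1 had 1078 CPM against 1.65 CPM, a ratio of 9.35 (7.97 to 11.24). These ratios rest on 3, 1 and 4 UMIs in cluster 2. Hdc, which makes histamine from histidine, had 1614 CPM against 3.72 CPM and was found in 50 of the 56 cells. Prok2, the secreted prokineticin, was less general than its rank: its 62 UMIs came from 3 cells, and 44 of them from 1.

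Among the 15 lowest were F13a1, Retnla, Pid1, H2-Aa, Rassf4, Ccl9, H2-DMa, C1qb, Fgfr1, Ctsc, Mrc1, Mgl2, Dpysl2 and Pltp. Most are genes of macrophages, monocytes and antigen-presenting cells. F13a1, the coagulation factor XIII A chain, had 1 UMI in cluster 17 and 2033 in cluster 2. Retnla had 6 and 9868 UMIs, which is 32.2 CPM in cluster 17 and 4073 CPM in cluster 2, a log2 ratio of −6.98 (−8.43 to −5.86). Pltp, a phospholipid transfer protein, had 0 UMIs in cluster 17 against 2006 in cluster 2. With 3 counts set as a floor over the cluster, its log2 ratio was at most −5.69. The order of the lowest genes rests on this floor, since a gene with 0 UMIs in cluster 17 ranks as less low than 1 UMI would. Lpl, with 0 UMIs against 1098 in cluster 2, had a bound of −4.82 and fell outside the 15. Fgfr1, with 1 UMI against 760, had −5.87 and was in it. Retnlg and Retnla belong to 1 family, and Cstdc4 and Stfa2l1 to the stefins, so reads may be shared with near copies.

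**Figure D2:**
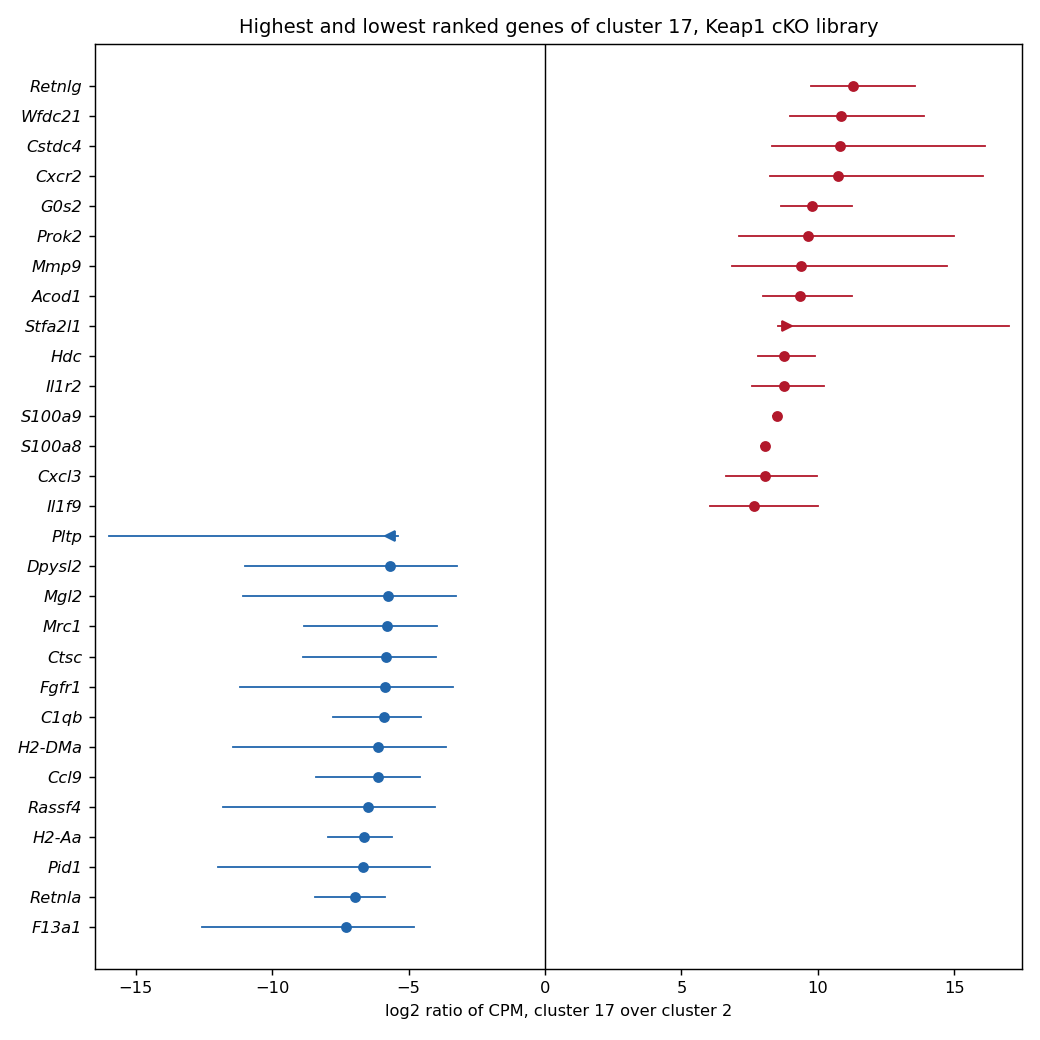
Log2 ratio of CPM, cluster 17 over cluster 2 of the Keap1 cKO library, for the 15 highest ranked genes and 14 of the 15 lowest; lines are exact 95% intervals for counting error, cut at the edge of the plot where an interval has no end, and triangles mark bounds from a floor of 3 counts. The 15 highest run from 11.29 for Retnlg to 7.67 for Il1f9, and the lowest from −7.29 for F13a1 to at most −5.69 for Pltp.

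Calprotectin was the leading product. S100a8 and S100a9, the pair of calcium-binding proteins that neutrophils carry in their cytosol and that bind zinc and manganese, had 46456 and 50783 CPM in cluster 17, against 173 and 140 CPM in cluster 2. Together they were 9.72% of all cluster 17 UMIs and 0.0312% of cluster 2 UMIs. A single cell carried 1 to 955 UMIs of S100a8, with a median of 57, and 0 to 1101 UMIs of S100a9, with a median of 74. In cluster 2 the highest counts in a cell were 14 and 8. Red blood cells held 1.02 UMIs of S100a8 per cell on average, a level near the 1.17 of cluster 2. Of the calprotectin and stefin list, 4 of the 6 members with at least 20 UMIs were at least 2-fold higher and 0 lower. Beside this and the list counts below stand the 12.0% higher and 29.3% lower of all genes. The list had a median log2 ratio of 5.14. Stfa2l1, an inhibitor of cysteine proteases, had 107 UMIs in 16 cells of cluster 17 and 0 in cluster 2, a log2 ratio of at least 8.86.

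Granule genes are made at successive stages of maturation. Genes of the azurophil granule, which is filled in promyelocytes, were near 0: Mpo and Prtn3 had 0 UMIs and Prss57 had 1, and 4 further members were not analysed here. Of the genes of the specific granule, filled later, 7 of 9 were measured and 2 were not analysed here; 6 of the 7 were at least 2-fold higher and 1 was lower, with a median of 3.49. Ltf, lactoferrin, counted among the 6, had 0.196 UMIs per cell in cluster 17, 0.174 in cluster 2 and 0.142 in red blood cells, a level that free RNA can give. Lcn2, which binds bacterial siderophores, had 1399 CPM in cluster 17 and 14.9 CPM in cluster 2, in 31 of the 56 cells. Mmp8, the neutrophil collagenase, had 236 CPM against 9.91 CPM. The lower member was Chil3, a chitinase-like protein, with 16.1 CPM against 145 CPM. In the gelatinase and secretory list, 6 of 6 were higher and the median was 3.72. Mmp9, the gelatinase, had 52 UMIs in 30 cells against 1 UMI in cluster 2. Wfdc17 and Slpi, small secreted proteins of which Slpi blocks neutrophil elastase, had 4853 and 1737 CPM in cluster 17, against 778 and 62.7 CPM in cluster 2.

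Receptors for chemoattractants included higher and lower members. Of 14 measured, 9 were at least 2-fold higher and 4 lower, beside 12.0% and 29.3% of all genes, so the share of lower members was near that of all genes. The median was 2.04. The most abundant was Ccrl2, a chemerin-binding receptor, with 1625 CPM in cluster 17 and 77.6 CPM in cluster 2. Fpr1 and Fpr2, the receptors for formylated peptides, had 129 and 193 CPM in cluster 17, against 1.24 and 5.78 CPM in cluster 2. The hydroxycarboxylic acid receptor Hcar2 had 831 CPM against 5.37 CPM, and Ccr1 794 CPM against 78.0 CPM. Cxcr1 had 2 UMIs in cluster 17 and 0 in cluster 2. The lower members included Ccr2, Cx3cr1 and C3ar1. Ccr2, which draws monocytes out of marrow, had 32.2 CPM in cluster 17 and 1406 CPM in cluster 2, and its 6 UMIs in cluster 17 came from 1 cell.

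Homing and adhesion genes were mixed. Of 10 members, 5 were higher and 1 lower, beside 12.0% and 29.3% of all genes, with a median of 1.12. Selplg, the ligand of P-selectin, had 568 CPM in cluster 17 and 189 CPM in cluster 2. Cxcr4, the receptor for CXCL12 that rises on aging neutrophils, had 127 UMIs in 41 cells. Its level was 681 CPM in cluster 17 and 91.2 CPM in cluster 2. The integrin genes Itgam and Itgb2 had 327 and 247 CPM in cluster 17, against 587 and 291 CPM in cluster 2, within 2-fold.

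Among 15 cytokine receptors, 8 were higher and 2 lower, with a median of 1.43. Csf3r had 1780 CPM in cluster 17 and 36.3 CPM in cluster 2, a log2 ratio of 5.61 (5.27 to 5.97). Il1r2, a decoy receptor that binds interleukin 1 without signalling, had 1062 CPM against 2.48 CPM, in 47 of the 56 cells. Il17ra, a subunit of the interleukin 17 receptor, had 284 CPM against 72.2 CPM, while Il17rc had 1 UMI. Csf1r and Ifngr1 were the lower members. Csf1r, the receptor of the macrophage growth factor, had 118 CPM in cluster 17 and 446 CPM in cluster 2.

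Sensors of microbes and damage were higher in 13 of 16 members and lower in 1, with a median of 2.15. The C-type lectin Clec4e, which binds mycobacterial glycolipid, had 1662 CPM in cluster 17 and 77.6 CPM in cluster 2, and Cd14, the co-receptor for endotoxin, had 2257 CPM and 292 CPM. Trem1 had 558 CPM against 8.67 CPM, a log2 ratio of 6.01 (5.32 to 6.76). Nlrp3, the inflammasome sensor, had 483 CPM against 19.8 CPM. The lower member was Tlr7, with 0 UMIs in cluster 17 against 120.

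The leading cytokine messages were Cxcl2 and Il1b. The 26 listed cytokines and chemokines summed to 30531 CPM in cluster 17 and 5874 CPM in cluster 2. Of 17 with at least 20 UMIs, 10 were higher and 5 lower, with a median of 2.51. Cxcl2 had 0 to 281 UMIs per cell in cluster 17, with a median of 33.5, and 0 to 55 in cluster 2, with a median of 1. Its level was 16842 CPM in cluster 17 and 727 CPM in cluster 2, a log2 ratio of 4.53 (4.45 to 4.62). Il1b had 0 to 97 UMIs per cell with a median of 29.5, and 9008 CPM against 111 CPM, a log2 ratio of 6.35 (6.16 to 6.54). Cxcl3 had 82 UMIs in only 12 cells, and its 440 CPM stood against 1.65 CPM in cluster 2.

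The share of lower members, 5 of 17, was near the 29.3% of all genes. Il1rn, the antagonist of the interleukin 1 receptor, had 654 CPM in cluster 17 and 27.2 CPM in cluster 2. Ccl3 had 1158 CPM against 76.0 CPM, but its 216 UMIs came from 19 cells. Tnf had 322 CPM against 16.5 CPM, and Csf1 had 418 CPM against 2.06 CPM. The lower members were Ccl9, Ccl6, Cxcl16, Ccl7 and Ccl2. Ccl6 had 509 CPM in cluster 17 and 3288 CPM in cluster 2. Il6, Il10, Cxcl1 and Ccl2 had 0 UMIs in the 56 cells.

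Genes of the oxidative burst did not move as 1 group: of 8, 3 were higher and 2 lower. The list holds subunits of the NADPH oxidase that makes superoxide, and also Sod2 and Hvcn1, which are not subunits of it. Sod2 was among the 3 higher. Hvcn1, among the 2 lower, had 1 UMI in cluster 17 against 28 in cluster 2, a log2 ratio of −1.11 (−6.46 to 1.49). Over all genes 12.0% were higher and 29.3% lower, so the share of lower members was near that of all genes. The list median was 0.51. The catalytic subunit Cybb had 80.4 CPM in cluster 17 and 928 CPM in cluster 2, a log2 ratio of −3.53 (−4.37 to −2.80), and was found in 9 of the 56 cells. A cytosolic partner was closer: Ncf1 had 311 CPM in cluster 17 and 363 CPM in cluster 2. Ncf4 and Rac2, further parts of the complex, were higher, with log2 ratios of 1.58 and 1.70. In the lipid mediator list 2 of 8 were higher and 2 lower, and the lower share was again near that of all genes. Ptgs2, the inducible cyclooxygenase, had 971 CPM against 16.5 CPM, a log2 ratio of 5.88 (5.38 to 6.41), and Alox5ap, which feeds leukotriene synthesis, had 1255 CPM against 845 CPM.

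Genes of antigen presentation and of scavenging were the lowest lists. Of 10 genes for MHC class II and costimulation, 8 were lower and 1 higher, with a median of −5.02. Cd74, the invariant chain, had 252 CPM in cluster 17 and 9396 CPM in cluster 2. The higher member was Cd80, with 14 UMIs in 10 cells. All 13 measured genes of complement and scavenging were lower, with a median of −3.80. Lyz2, the lysozyme shared by myeloid cells, had 660 CPM in cluster 17 and 7626 CPM in cluster 2. Apoe had 47 UMIs in cluster 17, of which 45 came from 1 cell. Of 12 lysosomal genes 7 were lower and 0 higher, with a median of −1.58, and Psap, a precursor of lysosomal lipid activators, had 295 CPM against 3091 CPM.

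The transcription factors of these lineages were mixed. Of 12, 4 were higher and 7 lower, with a median of −2.86. Cebpb and Cebpd, factors of late granulocytes and of inflammation, had 4676 and 515 CPM in cluster 17, against 880 and 62.3 CPM in cluster 2. Cebpa, which acts in early progenitors, had 21.4 CPM against 251 CPM. Spi1, which encodes PU.1, had 777 CPM against 351 CPM. Cebpe and Gfi1, active in granulocyte precursors, had 4 UMIs and 0 UMIs in cluster 17. Zeb2, Klf4, Maf, Irf4 and Irf8 were lower. Of 8 cell cycle genes with at least 20 UMIs, 0 were higher and 3 lower, beside 12.0% and 29.3% of all genes. Their median was −0.39, near the −0.33 of all genes, but 3 of the 8 members rest on the floor of 3 counts. The list median was −1.19 with cells thinned to 1000 UMIs and −1.59 with at least 100 UMIs. All genes had medians of −0.38 and −0.51 there. The list median also fell with free RNA subtracted, so its nearness to all genes depends on the processing. Mcm3 differed most, with 1 UMI in cluster 17 against 104 in cluster 2. Mki67, a marker of dividing cells, had 3 UMIs, all in 1 cell, 16.1 CPM against 9.91 CPM in cluster 2. The replication clamp Pcna had 13 UMIs in 10 cells, 69.7 CPM against 114 CPM, and Top2a had 0 UMIs in cluster 17.

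Immediate early genes and inhibitors of NF-kB were higher in 14 of 18 and lower in 0, with a median of 1.62. Nfkbia, the inhibitor that NF-kB induces, had 4177 CPM in cluster 17 and 748 CPM in cluster 2, and Ier3 had 3035 CPM and 238 CPM. Fos had 2113 CPM against 2416 CPM and Jund 1378 CPM against 1470 CPM, both within 2-fold. Tissue was digested before capture in both clusters, and the part of digestion in these levels was not tested. Survival and death genes were higher in 9 of 13 and lower in 1, with a median of 1.64. Mcl1, on which neutrophil survival depends, was found in 56 of 56 cells at 3834 CPM, against 1189 CPM in cluster 2. The Bcl2a1 copies were higher, with log2 ratios of 3.15 for Bcl2a1a, 3.04 for Bcl2a1b and 1.64 for Bcl2a1d, and these near copies may share reads.

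Glycolysis and hypoxia genes were higher in 16 of 20 and lower in 0, with a median of 1.45. Mature neutrophils draw most of their energy from glycolysis. The glucose transporters Slc2a1 and Slc2a3 had 273 and 129 CPM in cluster 17, against 11.1 and 2.89 CPM in cluster 2. Gapdh had 1442 CPM against 616 CPM. Egln3, an oxygen-sensing hydroxylase induced by hypoxia, had 35 UMIs in 22 cells, 188 CPM against 1.65 CPM in cluster 2, a log2 ratio of 6.83 (5.34 to 8.78).

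Genes around itaconate and NRF2, the transcription factor that KEAP1 marks for degradation, were higher in 9 of 20 and lower in 4. Over all genes these shares were 12.0% and 29.3%. The list median was 0.48. Keap1 itself had 5 UMIs in 3 cells of cluster 17, 26.8 CPM, against 52.8 CPM in cluster 2, and whether its 3′ tags lie in the deleted part is not stated. Slc7a11, the cystine importer, had 751 CPM against 16.5 CPM, a log2 ratio of 5.51 (4.99 to 6.05), and was found in 35 of the 56 cells. Fth1, the ferritin heavy chain, had 3 to 271 UMIs per cell with a median of 67, and 24815 CPM against 3392 CPM. Gsr, glutathione reductase, had 643 CPM against 72.7 CPM. NRF2 targets differed among themselves. Nqo1, Gclc and Gclm had 2, 7 and 8 UMIs in cluster 17, and their log2 ratios of 0.45, 0.06 and 0.36 lay within 2-fold. Txnrd1, thioredoxin reductase, had 145 CPM against 43.8 CPM, a log2 ratio of 1.73 (1.06 to 2.35), and Taldo1, of the pentose phosphate pathway, had a log2 ratio of 1.47 (1.19 to 1.74). Srxn1, sulfiredoxin, had 6 UMIs and a log2 ratio of 1.28 (−0.26 to 2.56). The 4 lower genes were Prdx1, Tkt, Gpx1 and Cat.

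Interferon response genes were higher in 7 of 16 and lower in 3, beside 12.0% and 29.3% of all genes, with a median of 0.44. Ifitm1 had 4032 CPM in cluster 17 and 36.3 CPM in cluster 2, a log2 ratio of 6.79 (6.47 to 7.13), and Ifitm2 had 2767 CPM and 752 CPM. Ifitm3, from the same family, was lower, with 670 CPM and 1398 CPM. Isg15 had 39 UMIs in 10 cells, of which 21 were in 1 cell. Of 12 Fc and paired receptors 6 were higher and 2 lower, with a median of 1.09. Cd300lf and Siglece, inhibitory receptors, had 676 and 279 CPM in cluster 17, against 24.4 and 14.0 CPM in cluster 2, and Cd274, which encodes the ligand PD-L1, had 172 CPM against 3.72 CPM. Motility genes were mostly within 2-fold, with 3 of 12 higher, 0 lower and a median of −0.18.

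**Figure D3:**
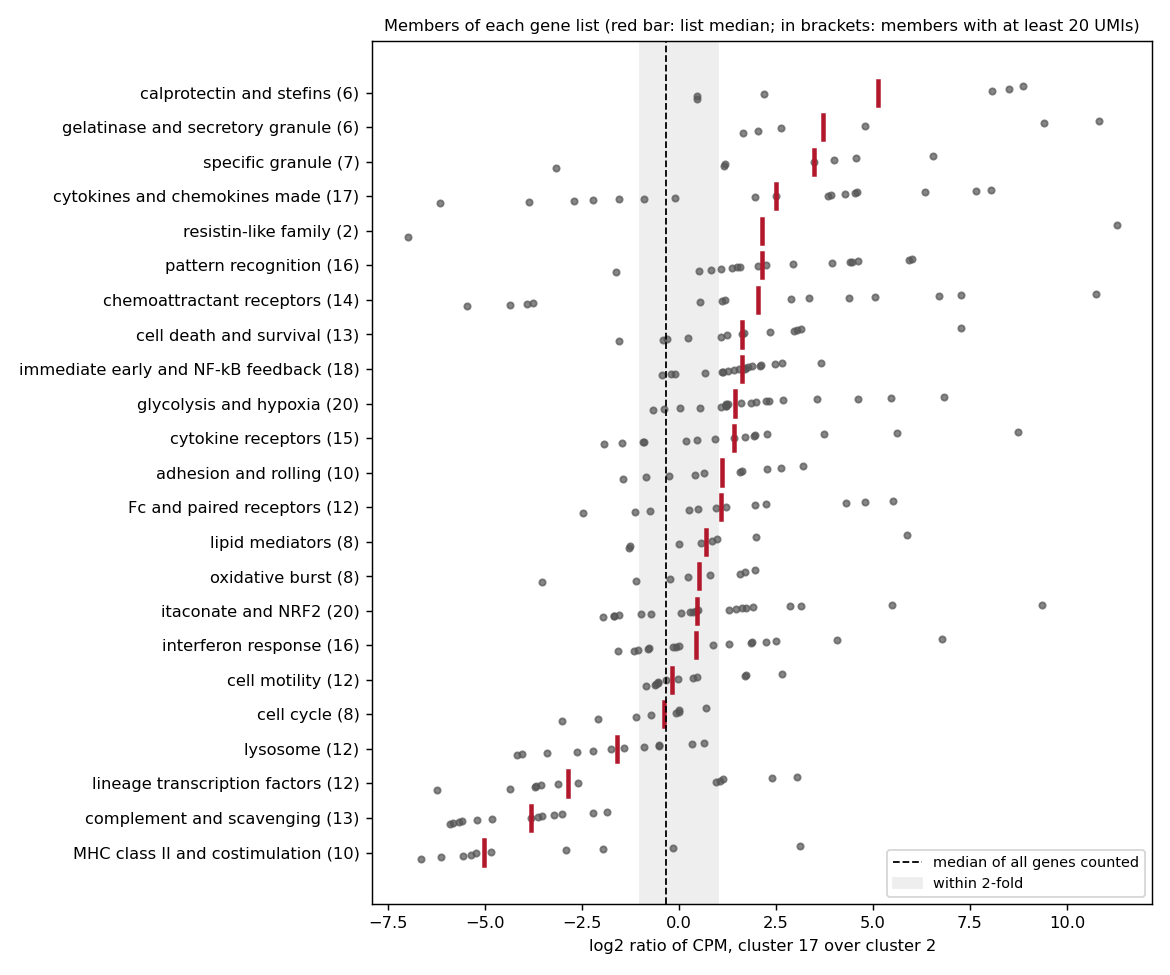
Log2 ratio of CPM, cluster 17 over cluster 2, for each member (grey points) of 23 gene lists, with the list median as a red bar and the number of members with at least 20 UMIs in brackets; members with 0 UMIs in a cluster are drawn at their bound. Medians run from 5.14 for calprotectin and stefins to −5.02 for MHC class II, against −0.33 for all genes (dashed line).

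The cells differed most in how much calprotectin they carried. The share of a cell's UMIs from S100a8 and S100a9 ran from 0.0821% to 29.9% with a median of 5.28%. It was under 1% in 11 cells, from 1% to 10% in 23, and at least 10% in 22. Cells rich in calprotectin were poor in ribosomal protein RNA, whose share ran from 1.74% to 18.4% with a median of 4.28% in cluster 17, against a median of 12.3% in cluster 2. Across the 56 cells Spearman's rho between the shares was −0.77, and −0.70 in 54 cells thinned to equal depth. Both are shares of the same total, so a large share of one leaves less for the other. The S100a8 and S100a9 shares followed each other with a rho of 0.90.

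Retnlg marked the calprotectin-rich end. Its share had a rho of 0.68 with S100a8 and 0.71 with Wfdc21, and 0.64 and 0.65 after thinning. The 21 cells with a Retnlg UMI had a median of 3930 UMIs and the 35 without one had 2950. Wfdc21 was found in 18 of the 21 and in 8 of the 35, and Mmp8 in 11 and 2. The rho of Retnlg with Mmp8 was 0.58 at full depth and 0.17 after thinning. Mmp8 had only 40 UMIs in the 21 cells and 4 in the 35, and thinning leaves fewer. The thinned value therefore cannot show whether this relation holds at equal depth. The lectin Clec4n went the other way, in 2 of the 21 and 24 of the 35 cells, with a rho of −0.57, or −0.30 after thinning. Ccl3 was found in 4 of the 21 and 15 of the 35, with a rho of −0.26, or −0.10 after thinning, which is no clear relation. Siglecf, a sialic acid receptor best known from eosinophils, was found in 1 of the 21 and 10 of the 35, with 13 UMIs in all and 0 in cluster 2. Cxcr2 was found in 20 of the 21 cells and 22 of the 35, and Csf3r in 21 and 32.

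Acod1 followed inflammatory genes. Its rho was 0.61 with Cxcl2, 0.60 with Cxcl3 and 0.62 with Nlrp3, and 0.47, 0.50 and 0.39 after thinning. It was detected in 17 of the 21 cells with Retnlg and 13 of the 35 without. All of these are correlations over cells of 1 library that share depth and free RNA, and are given as descriptions.

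**Figure D4:**
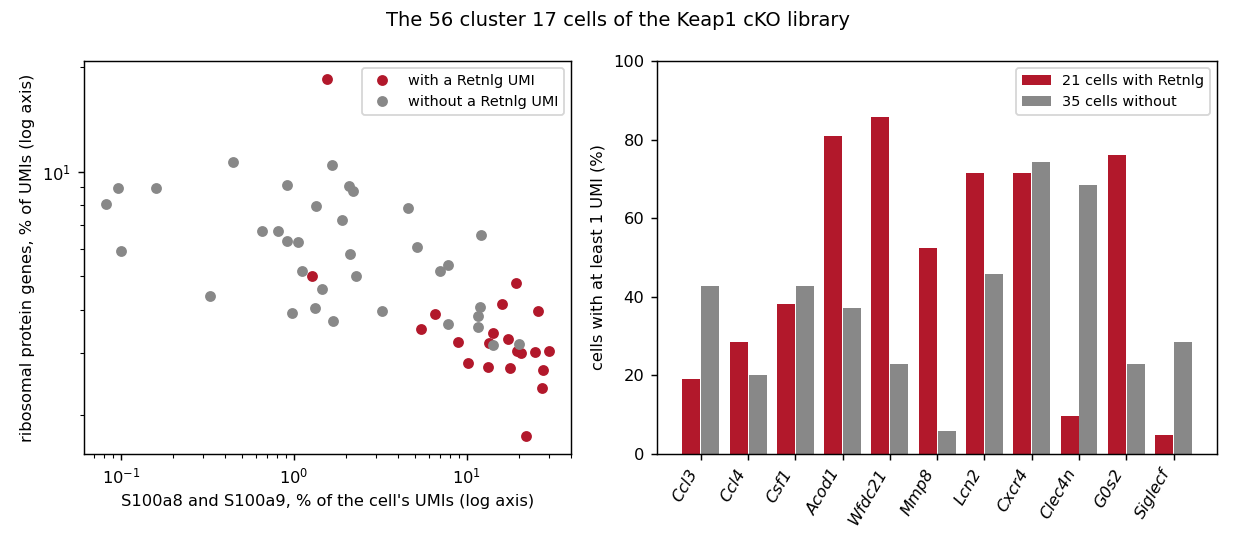
Left, share of each cell's UMIs from S100a8 and S100a9 against that from ribosomal protein genes, in percent on log axes, for the 56 cluster 17 cells, with cells holding a Retnlg UMI in red; right, share of the 21 cells with Retnlg and of the 35 without it that hold each of 11 genes. The highest red point is the cell with 13599 UMIs and 18.4% ribosomal RNA.

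The cell with the most UMIs stood apart. It had 13599 UMIs, against 7599 in the next, and 3900 genes. It held 67 UMIs of Cd3g, 32 of Trdc, 8 of Cd3e and 8 of Cd3d, the chains of the T cell receptor complex, where the other 55 cells together had 5, 2, 0 and 5. The 6 T cell markers summed to 724 CPM in cluster 17 and 185 CPM in cluster 2. The cell also held 66 UMIs of S100a8, 146 of S100a9 and 6 of Csf3r. Both neutrophil and gamma-delta T cell genes were thus in 1 barcode, and whether 2 cells shared the droplet was not tested. Without it 1044 genes were at least 2-fold higher and 2544 lower.

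Across the 16 clusters of the Keap1 cKO library with at least 20 cells, the naming genes belonged largely to cluster 17. These genes were taken as markers of the cluster, which was drawn from these same values, so their concentration there is no separate result. Cluster 17 held 94.1% of the library's Retnlg UMIs in those clusters, 95.7% of Cxcr2, 93.9% of Acod1 and 71.7% of Csf3r. For Csf3r the next level was 36.3 CPM in cluster 2. S100a8 was not particular in this sense: cluster 17 had the highest level, 46456 CPM, but epithelial cluster 9 had 21118 CPM and clusters 13 and 4 had 10145 and 4188 CPM, and cluster 17 held only 12.7% of its UMIs. Il1b reached 179 CPM at most elsewhere, in cluster 12, and cluster 17 held 73.0% of it. Cluster 17 also held 53.9% of Cxcl2 and 41.8% of Ptgs2. Slc7a11 had 751 CPM in cluster 17 and 146 CPM in epithelial cluster 4, the next.

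Ligands that act on neutrophils came from several clusters. Cxcl5, a CXCR2 ligand, had its highest level in epithelial cluster 14, at 204 CPM, and 0 UMIs in cluster 17. Cxcl3 was highest in cluster 17 at 440 CPM, with 110 CPM in cluster 14. Csf3, the ligand of Csf3r, was highest in endothelial cluster 8 at 20.9 CPM. The same cluster had the highest levels of the selectin gene Selp, 1034 CPM, and of Icam1, 346 CPM, both of which neutrophils bind as they leave vessels. Il17a was highest in T cell cluster 3 at 1416 CPM. Cxcl1 reached 40.2 CPM at most, from 6 UMIs in cluster 6.

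**Figure D5:**
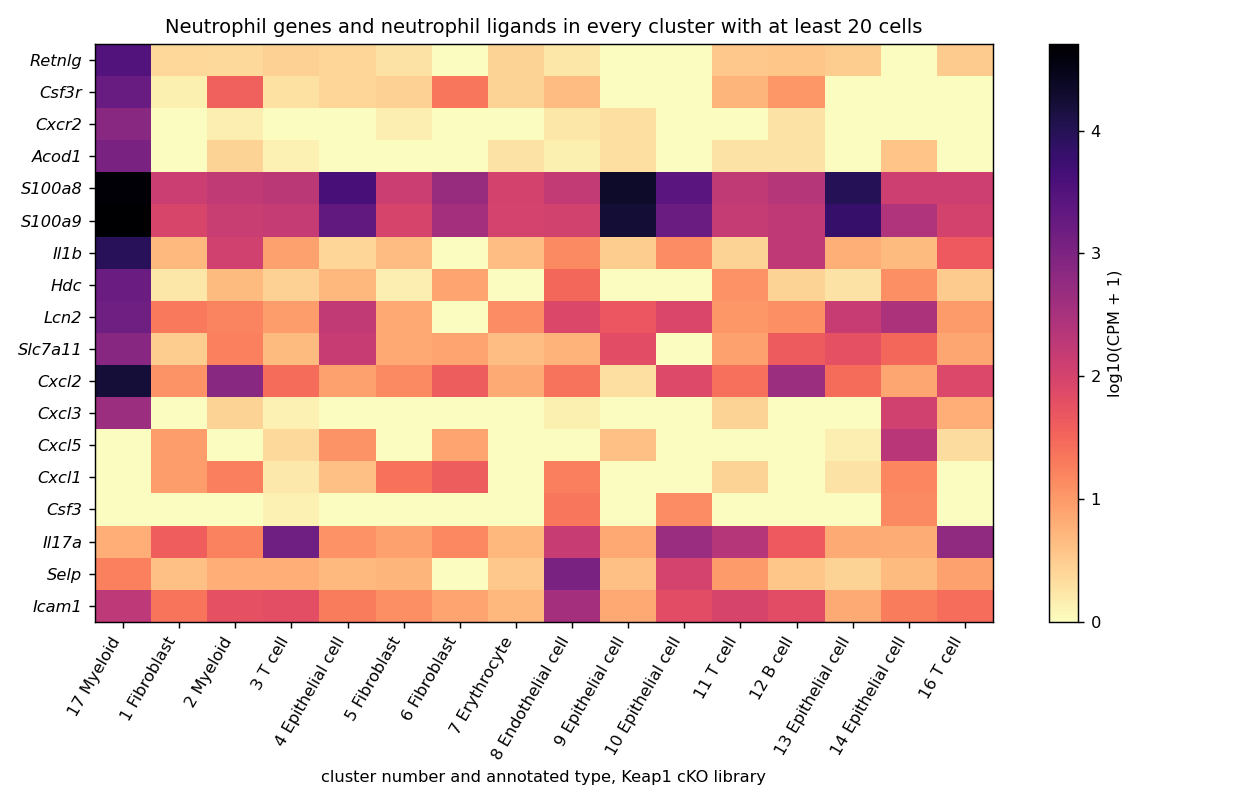
Level of 18 genes, as log10 of CPM + 1, in the 16 clusters of the Keap1 cKO library with at least 20 cells, cluster 17 in the first column. Retnlg, Cxcr2 and Acod1 are dark in cluster 17 alone among the clusters drawn, S100a8 and S100a9 are also high in epithelial clusters 4, 9, 10 and 13, and Cxcl5, Il17a and Selp peak in clusters 14, 3 and 8.

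The 4 control cells carried neutrophil markers too, with 9, 9, 9 and 10 of 12 detected. They had 1578, 2834, 3312 and 15284 UMIs. Retnlg had 2, 23, 7 and 4 UMIs in them, Csf3r 1, 9, 11 and 10, Cxcr2 2, 5, 2 and 2, and S100a8 56, 134, 88 and 294. Il1b had 11, 62, 77 and 100 UMIs and Cxcl2 had 53, 105, 19 and 225. Acod1 and Csf1 had 0 UMIs in all 4 control cells. With so few cells of 1 library, the exact 95% counting interval of such a share reaches 60.2%. No difference between the genotypes is read from these 0 counts. The cell with 15284 UMIs also held 96 UMIs of Krt5, 66 of Krt14 and 84 of Krt15, keratins of basal keratinocytes, and the other 3 held at most 2 of any of them.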

How the data were processed

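Esophageal cells of 1 Keap1 cKO and 1 control library were read with 10x 3′ chemistry, per the labels. The submitters' processing notes name Seurat 4.0.2, Cell Ranger 6.0.1, R 4.1.1 and mm10. Values deposited by the authors are on a natural log scale, after each cell was brought to a total of 10000 and 1 was added, as read from the values. Reversing this gave UMI counts, whole within 0.01 for 100% of positive values. Clusters come from the authors' deposited annotation, and doublets were not called here. UMIs were summed per cluster (Python 3.11.15, NumPy 2.4.6, SciPy 1.17.1). Single sums have exact Poisson, ratios exact conditional binomial and shares Clopper-Pearson 95% intervals. A count of 0 was set to 3 over the cluster. Where that floor lay above the other cluster's level, the log2 ratio was set to 0 and the gene still counted. Genes with 0 UMIs in cluster 17 and few in cluster 2 could therefore not be called lower.

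Genes named are the 15 highest and 15 lowest with at least 50 UMIs and 200 CPM, the 2 most abundant and 2 most different of each of 25 lists, and the 4 naming genes. Other genes were chosen after their values were seen. The members and lists were chosen with earlier results of these data known. Locations come from GENCODE vM21, and promoters from RefSeq. The comparison was tested on simulated data. A few ranked or listed genes are counted but are not reported here by name.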

Additional observations from a re-analysis of the deposited data

How the results depend on the processing

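No paired analysis was possible because each genotype has 1 library. The number of genes at least 2-fold higher, 1037, was 1577 with median-of-ratios scaling, 535 with cells thinned to 1000 UMIs, 1729 with at least 5 UMIs and 440 with at least 100 UMIs. The number at least 2-fold lower, 2522, was 1008 with thinning and 1398 with at least 100 UMIs. Thinning and the stricter minimum leave fewer genes to count, 3342 and 4025 of 8617. With at least 5 UMIs the lower count was bound to stay, since at these depths no gene under 20 UMIs can be 2-fold lower. Under the other alternatives both counts stayed within 1.5 times. Of 94 named genes and 24 lists, 0 changed sign where the ratio was at least 2-fold, in 10 alternatives. With thinning 12 list medians moved by over 1.5-fold, among them the lineage transcription factors (−1.11), cytokine receptors (0.61), chemoattractant receptors (1.14), itaconate and NRF2 (1.71) and interferon response (1.94). The cause was not tested, and fewer members pass the minimum there. Over all alternatives 141 of 925 gene ratios left their counting interval. Leaving out the deepest cell, an alternative added after seeing the data, and leaving out the 5 deepest moved H2-DMa (−4.44 and −4.22, bounds, against −6.13) and Ctsc (−6.73 and −6.51, against −5.84), and the 5 deepest also moved Cstdc4 to 9.70, Prok2 to 8.20 and Retnlg to 10.57. Free RNA was taken as the mean of the red blood cells without hemoglobin genes, so RNA of the red blood cells themselves is counted in it. Subtracting it took S100a8 to 11.16, since little of its cluster 2 signal was left, and Ftl1 to −1.34, against 0.28. Ftl1 was found in 120 of 120 red blood cells, at 10.7 UMIs per cell. How much of that is free RNA was not tested, so −1.34 is no corrected level. S100a9 went to at least 15.43, a bound from the floor of 3 counts, since nothing of its cluster 2 signal was left. Of 56 cells, 0 had more markers of another type, whose lists are shorter, and the other annotated myeloid cells were cluster 2 alone, so these alternatives gave the same values. Depth limits what 1 to 4 UMIs in a cluster can show.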

Other observations

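Further RNA classes set cluster 17 apart from cluster 2. Mitochondrial transcripts were 0.139% to 4.08% of a cell's UMIs in cluster 17, with a median of 0.978%, and had a median of 2.58% in cluster 2. Srgn, the granule proteoglycan serglycin, had 6901 CPM in cluster 17 and 492 CPM in cluster 2 and was found in 56 of 56 cells. Ly6g, the surface protein targeted by the neutrophil antibody 1A8, had 8 UMIs in 4 cells of cluster 17 and 0 in cluster 2. Both genes were chosen after their values were seen.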
